A study of Mus musculus with 352 samples.

Results

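Muscle in which the clock gene Bmal1 (gene symbol Arntl) had been switched back on in muscle fibres alone was compared with wild-type muscle at 26 weeks of age. The comparison used the 46 of 352 libraries whose sample names carry the prefixes Mu-RE_26w_ALF and WT_26w_ALF, and asked which daily rhythms and which 24 h mean levels a muscle clock alone leaves away from wild type. The tissue was tibialis anterior, a fast-twitch muscle at the front of the lower leg, taken from C57BL/6 mice at 6 zeitgeber times 4 h apart (ZT, hours after lights on) and profiled by RNA sequencing. Wild-type mice (WT) numbered 22, 11 males and 11 females. Muscle-restored mice (Mu-RE) numbered 24, 13 males and 11 females, and had the genotype Bmal1 stopFL/stopFL with 1 copy of Hsa-Cre: a floxed stop cassette blocks Bmal1 in every cell, and Cre driven by a human skeletal actin promoter removes it in skeletal muscle fibres. The brain and all other cell types of these mice, the fibroblasts, blood vessels and immune cells within the muscle included, therefore still lacked Bmal1. For reference, values are also given for 24 mice with the same stop cassettes and no Cre (KO), 26 weeks old, and for Mu-RE and WT mice of 10 to 12 weeks, called 10 weeks here. Lists of genes that depend on Bmal1 or change with age were drawn from 23 KO mice of 10 weeks and from 24 old wild-type mice of 85 to 116 weeks. All these mice fed ad libitum (ALF); 23 Mu-RE and 24 WT mice of 26 weeks on time-restricted feeding (TRF) are named where used. Each group had 3 to 5 mice per time in the main comparison.

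The circadian clock is a feedback loop of transcription. BMAL1 and its partner CLOCK bind E-box sequences and switch on the Period and Cryptochrome genes, whose proteins block them in turn, and the nuclear receptors REV-ERB (Nr1d1, Nr1d2) and ROR close a second loop onto Bmal1 itself. Outputs such as DBP carry the rhythm on to metabolic genes. Clocks of single tissues are normally set each day by the brain, by feeding and by hormones, and the muscle clock is known for its hold on glucose use and muscle metabolism.

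Depth, read from the step that a single read makes in low values, was 14.7 to 25.1 M reads in WT and 15.8 to 28.6 M in Mu-RE libraries (medians 19.6 M and 21.2 M). Libraries within a group correlated at r of 0.92 to 0.986 across genes. The labels were checked with Ces1d, a carboxylesterase gene whose level depends on Bmal1. Its lowest Mu-RE mouse was at a log2 FPKM of 1.28, its lowest WT mouse at 1.53, and the KO mean was -3.03 (SD 1.47, n = 24). This check parts Mu-RE and WT mice from KO mice but not from each other, since their highest values were 4.29 and 5.19. Arntl itself checked nothing, since the KO mice held more of its RNA than WT mice. WT replicates 19 and 1 lay farthest out on the first principal component (-49.3 and -34.1). A difference that went with the exon length of genes also ran between the groups (Spearman correlation of 0.31 across genes, which are not independent replicates), so counts are repeated below with each library's length slope as a covariate. All values are log2 FPKM unless another unit is named, and a gene is called where the Benjamini-Hochberg adjusted p of limma over the 9862 genes tested was under 0.05.

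A daily rhythm of the clock genes shared by the group was what Mu-RE muscle lacked most plainly at 26 weeks. Each mouse was sampled at a single time, so a fitted rhythm is that of a group. Whether single mice kept rhythms at unlike times was not tested. A 24 h rhythm was called in 103 genes of WT muscle (1.04% of those tested) and in 0 genes of Mu-RE muscle (0%; limma, smallest adjusted p 0.177, and 1253 genes at an unadjusted p under 0.05, against 705 in WT). The test of the difference in rhythm called 31 genes (0.314%), and the fitted amplitude, which is the distance from mean to peak, was lower in Mu-RE muscle in 31 of these 31. Of the 16 core clock genes tested, out of 19 listed, 9 were called: Per1, Per2, Per3, Cry2, Nr1d1, Arntl, Clock, Bhlhe41 and Dbp. Their list had a median amplitude of 0.49 in WT and 0.13 in Mu-RE muscle, against 0.09 and 0.10 over all genes tested.

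In the positive arm, Arntl in WT muscle fell from a mean of 3.45 (SD 0.48, n = 4) at ZT 0 to 1.20 (SD 0.24, n = 4) at ZT 12. The 4 WT mice at ZT 0 (2.96 to 4.05) did not overlap the 4 at ZT 12 (0.99 to 1.51). In Mu-RE muscle the means at the 6 times lay between 2.36 (SD 0.44, n = 4) and 3.12 (SD 0.09, n = 3), so the amplitude was 1.08 (SE 0.12) in WT and 0.10 (SE 0.11) in Mu-RE muscle (limma, adjusted p of the difference 0.00385). Clock, which encodes the partner of BMAL1, had an amplitude of 0.48 (SE 0.07) in WT and 0.16 (SE 0.06) in Mu-RE mice (adjusted p = 0.0159).

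In the negative arm the largest contrast was in Per2 (chr1:91415982-91459324, GRCm38), a repressor of BMAL1 and CLOCK. WT mice rose from -0.92 (SD 0.73, n = 4) at ZT 0 to 1.99 (SD 0.25, n = 4) at ZT 12, a fitted difference of 7.77-fold between trough and peak. All 24 Mu-RE mice lay between 0.38 and 1.46 at every time of day, inside the WT range of -1.83 to 2.38. The amplitude was 1.48 (SE 0.14) in WT and 0.06 (SE 0.08) in Mu-RE muscle (adjusted p = 6.8e-06), the smallest p of any gene for a difference in rhythm. Per1 (1.47 against 0.24, adjusted p = 0.0196) and Per3 (0.70 against 0.04, adjusted p = 0.0101) were called as well; the Per1 call was lost without Mu-RE replicate 13 or 16 or WT replicate 2. Cry2 (0.50 against 0.04, adjusted p = 0.024) and Bhlhe41, which encodes an E-box repressor (0.45 against 0.09, adjusted p = 0.03), each lost the call on leaving out any of several single mice, 7 for Cry2 (WT replicates 1, 2, 3 and 16, and Mu-RE replicates 1, 13 and 15) and 5 for Bhlhe41 (WT replicates 10 and 11, and Mu-RE replicates 9, 21 and 22). Cry1 did not pass the test (0.17 against 0.14, adjusted p = 0.953).

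Nr1d1, the REV-ERBα gene, ran in WT muscle from 5.16 (SD 0.16, n = 4) at ZT 4 to 2.64 (SD 0.28, n = 3) at ZT 20. Its Mu-RE means stayed between 3.23 (SD 0.57, n = 4) and 4.17 (SD 0.45, n = 4). With an amplitude of 1.43 (SE 0.11) in WT and 0.39 (SE 0.14) in Mu-RE muscle (adjusted p = 0.00273), it kept the largest Mu-RE amplitude of the 31 genes, although no rhythm was called there (adjusted p = 0.371). Dbp (chr7:45705088-45710203), a D-box activator directly downstream of BMAL1, went from 1.77 (SD 0.43, n = 4) at ZT 0 to 4.44 (SD 0.33, n = 4) at ZT 12 in WT mice. In Mu-RE mice its means showed no single crest: 2.93, 3.44, 2.61, 3.45, 2.21 and 3.05 from ZT 0 to ZT 20, with a spread of up to 1.09 (SD, n = 4) at ZT 8. Amplitudes were 1.41 (SE 0.12) and 0.17 (SE 0.20; adjusted p = 0.00273). Tef, a D-box factor related to Dbp (0.28 in WT, 0.05 in Mu-RE), Nfil3, the D-box repressor (0.64 and 0.24), Nr1d2 (0.31 and 0.16), Bhlhe40 (0.35 and 0.13) and Rora (0.12 and 0.23) were not called for a difference in rhythm (adjusted p from 0.804 to 0.93).

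**Figure D1:**
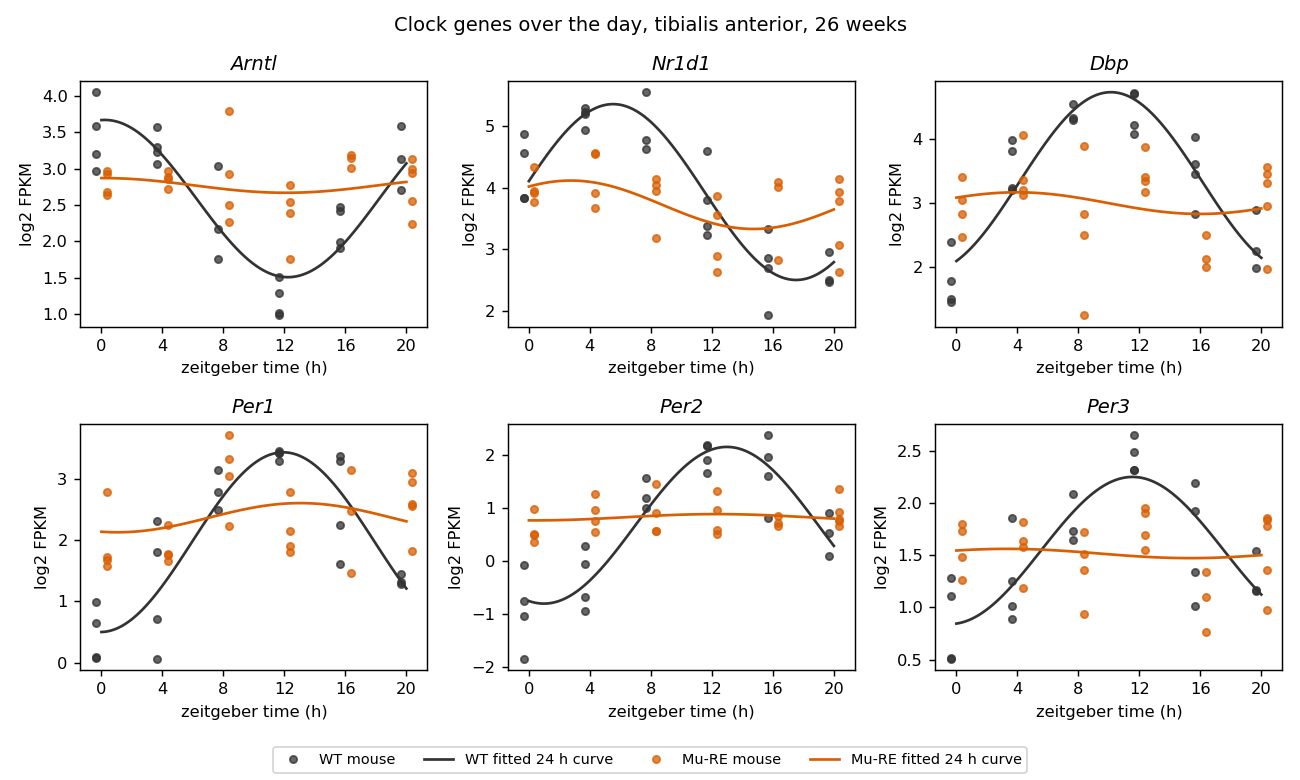
Log2 FPKM (y axis) of 6 clock genes against zeitgeber time in hours (x axis) in WT (black) and Mu-RE mice (orange) of 26 weeks. Points are single mice, drawn slightly apart for the 2 groups, and lines are the fitted 24 h curves. WT amplitudes run from 0.70 in Per3 to 1.48 in Per2, and Mu-RE amplitudes from 0.04 in Per3 to 0.39 in Nr1d1.

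The 24 h mean levels of Per3, Dbp and Nr1d1 were closer to wild type than to the knockout. For Per3 the mean was 1.54 in WT (SD 0.62, n = 22), 1.504 in Mu-RE (SD 0.33, n = 24) and -1.88 in KO muscle (SD 0.55, n = 24). Dbp averaged 3.33 (SD 1.06), 2.98 (SD 0.69) and 0.20 (SD 0.41), and Nr1d1 3.93 (SD 1.09), 3.72 (SD 0.56) and 1.66 (SD 0.67). The Mu-RE level differed from KO in each of the 3 (limma, largest adjusted p 3.84e-14), while its difference from WT was not called (-0.03, -0.33 and -0.20, with SE of 0.10, 0.16 and 0.13). Arntl itself averaged 2.59 in WT (SD 0.90), 2.78 in Mu-RE (SD 0.40) and 3.70 in KO mice (SD 0.23). Of the 16 clock genes 2 were higher in Mu-RE than WT (16.4% of all genes were), among them Cry2 by 0.31 (SE 0.08). Another 3 were lower (14.5% of all genes were): Bhlhe41 by 0.31 (SE 0.08), Bhlhe40 by 0.30 (SE 0.10) and Nr1d2 by 0.19 (SE 0.07). With the length covariate 1 was higher and 2 lower. The call of Nr1d2 (adjusted p = 0.0422) was lost in 22 of the fits that leave out 1 mouse.

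Promoter sequences are shown for 3 of the 31 genes whose rhythm differed, since each holds the letters of a motif through which clock or hormone signals are known to reach such genes. They were taken from RefSeq (GRCm38.p6), are written 5′ to 3′ on the strand of the gene, end before the transcription start, and have the motif in capitals.
Per1, chr11:69098743-69098828, + strand, with the E-box CACGTG that BMAL1 and CLOCK bind, 166 bases before the start: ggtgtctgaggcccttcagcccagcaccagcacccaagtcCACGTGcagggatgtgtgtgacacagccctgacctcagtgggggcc
Per3, chr4:151044776-151044910, - strand, with D-box letters TTANGTAA at 205 and 158 bases before the start: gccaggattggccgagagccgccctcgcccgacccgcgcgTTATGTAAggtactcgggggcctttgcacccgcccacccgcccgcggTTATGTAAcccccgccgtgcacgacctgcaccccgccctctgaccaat
Glul, chr1:153899831-153899928, + strand, with the ROR element core TAGGTCA at 58 and the glucocorticoid element core ACANNNTGT at 25 bases before the start: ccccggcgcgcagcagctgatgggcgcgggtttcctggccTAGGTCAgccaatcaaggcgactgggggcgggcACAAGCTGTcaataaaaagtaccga
Both strands were searched over the 250 bases before each start, and the motifs did not overlap each other in these windows. Promoters were matched for 27 of the 31 genes. A gene was counted where any of its promoters held the motif. The percentages are of single promoters, so the counts and percentages cannot be set against each other. The E-box was present in 3 of them (Per1, Bhlhe41 and Tspan4) and in 6.02% of all 32851 promoters, and the D-box letters in 2 (Per3 and Pde4b) and 2.06%. The glucocorticoid core was present in 3 (Glul, Aox1 and Mid1ip1) and 5.84%, and the ROR core in 1 (Glul) and 2.23%. A match describes letters only and is not evidence of binding.

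The 31 genes had a median amplitude of 0.61 in WT and 0.15 in Mu-RE muscle; the highest Mu-RE amplitude was 0.39 and the lowest WT amplitude 0.24. In WT mice 18 of them peaked between ZT 8 and ZT 20 and 13 at other times. Glul, which encodes glutamine synthetase and is a known glucocorticoid target, peaked at ZT 15 in WT muscle with an amplitude of 0.70 (SE 0.07), against 0.19 (SE 0.11) in Mu-RE muscle (adjusted p = 0.0031). Its mean level was also higher in Mu-RE mice, at 6.11 (SD 0.41, n = 24) against 5.55 (SD 0.61, n = 22), a difference of 0.57 (SE 0.10, adjusted p = 2.01e-05). Usp2, a deubiquitinase under clock control, went from an amplitude of 0.69 (SE 0.09) to 0.11 (SE 0.05), and Fmo2, a flavin monooxygenase, from 0.76 (SE 0.09) to 0.20 (SE 0.09; both adjusted p = 0.00273). Arrdc3, an alpha-arrestin (0.61 against 0.28), Adamtsl4, a matrix protein (0.68 against 0.11), Slc38a4, an amino acid transporter (0.67 against 0.06), Gpr146, a receptor (0.34 against 0.12), and Klhl8 (0.25 against 0.18) completed the 12 genes with the smallest p. Further genes of the 31 were Mid1ip1, a regulator of fatty acid synthesis (0.93 against 0.06), Slc16a9, a carboxylic acid transporter (0.79 against 0.03), Adh1, an alcohol dehydrogenase (0.87 against 0.12), and Ypel2 (0.70 against 0.12).

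Genes with strong WT rhythms that did not pass the difference test were also present. Arrdc2, an alpha-arrestin, had one of the 6 smallest p values for rhythm in WT muscle (amplitude 1.73) and an amplitude of 0.49 in Mu-RE muscle (adjusted p of the difference 0.801). Pnpla3, a lipid droplet protein, had amplitudes of 1.12 and 0.22 (adjusted p = 0.0865); without Mu-RE replicate 21 or 25 or WT replicate 7 or 24 it was called. The 6 genes with the smallest p of rhythm in Mu-RE muscle were Ccdc85c, Naprt, Dexi, Igfbp7, Tcf15 and Ptms, with amplitudes of 0.27 to 0.55 and adjusted p from 0.177 to 0.199, so none was called.

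Rhythmic genes chosen in other mice were read next. In WT mice of 10 weeks 576 genes were rhythmic (5.84%). In the 26-week mice their median amplitude was 0.18 in WT and 0.11 in Mu-RE muscle, 412 of the 576 had the lower amplitude in Mu-RE muscle, and 29 were called for a difference in rhythm. The median ratio of the Mu-RE to the WT amplitude was 0.60, and 0.36 over the 192 genes with an adjusted p under 0.01 at 10 weeks. Of the 31 genes, 0 were rhythmic in KO muscle at 26 weeks (limma, 2 at an unadjusted p under 0.05). Over all 9862 genes tested, 0 were called there and 596 had an unadjusted p under 0.05. The KO count of 0 is therefore not particular to the 31 genes. In Mu-RE muscle at 10 weeks 0 of the 31 were rhythmic (6 at an unadjusted p under 0.05), and 7 of all genes tested were called (0.071%). In Mu-RE mice of 26 weeks on TRF, 18 of the 31 were rhythmic, with a median amplitude of 0.49. Of all genes 687 (6.97%) were, which is no like background, since 28 of the 31 were rhythmic in WT mice on ALF. In WT mice on TRF 3732 of all genes were rhythmic, and the 31 had a median amplitude of 0.42. Among the 18, Arntl had an amplitude of 1.15 (SE 0.10) in Mu-RE mice on TRF, Nr1d1 1.47 (SE 0.15) and Dbp 1.34 (SE 0.14). Per2, at 0.59 (SE 0.17), was not called (limma, adjusted p = 0.0721). Amplitudes in WT mice on TRF were 1.69 (Arntl), 1.75 (Nr1d1), 1.96 (Dbp) and 1.62 (Per2).

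**Figure D2:**
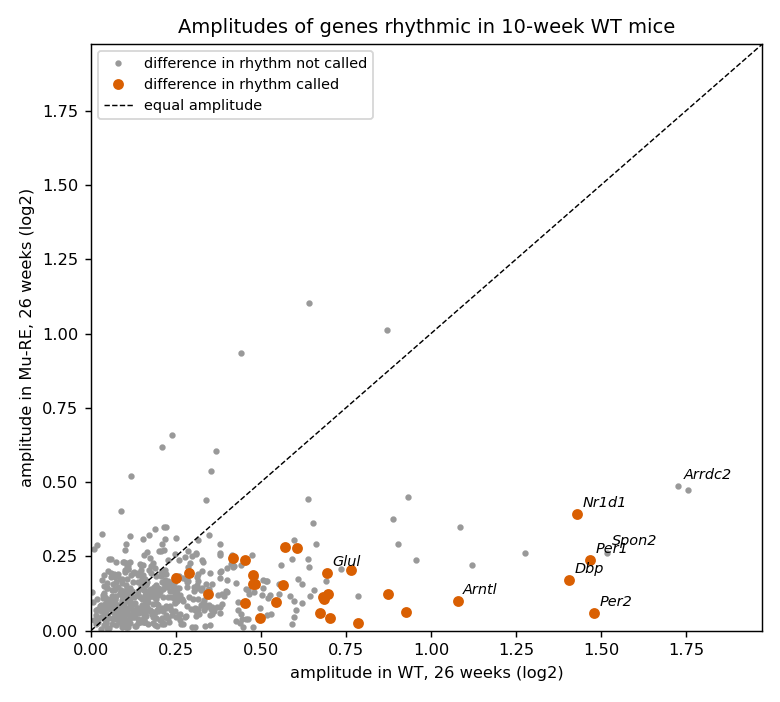
Fitted 24 h amplitude (log2) in Mu-RE muscle (y axis) against WT muscle (x axis) at 26 weeks for the 576 genes that were rhythmic in WT mice of 10 weeks. Orange points are the 29 genes called for a difference in rhythm, the dashed line marks equal amplitudes, and 412 genes lie below it.

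In 24 h mean level, 1616 genes were higher and 1426 lower in Mu-RE than in WT muscle, 3042 in all, with a median difference over all genes of 0.005. With the length slope as a covariate 1065 were higher (10.8%) and 903 lower (9.16%), and 1575 genes were called in the same direction by both fits. Most differences were small. A difference of at least 1.5-fold was reached by 146 of the higher and 156 of the lower genes, 302 together, and 280 of these were also called with the length covariate. At least 2-fold, 40 were higher and 43 lower.

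The genes raised most over wild type included those of secreted matrix proteins, of stress-responsive muscle proteins and of a hormone that muscle releases. Spon2 (spondin 2, a secreted matrix protein; chr5:33198184-33218455) had a lowest, median and highest value of -5.99, -1.09 and 0.52 in WT mice and -0.42, 0.97 and 2.15 in Mu-RE mice. The groups overlapped, with 15 of 24 Mu-RE mice above the highest WT mouse, and the difference was 2.48 (SE 0.27, adjusted p = 4.84e-09), or 5.56-fold. It was also rhythmic in WT muscle, with an amplitude of 1.52 (SE 0.30) and a peak at ZT 0.7; at that crest, ZT 0, WT mice averaged 0.25 (SD 0.29, n = 4) and Mu-RE mice 1.25 (SD 0.41, n = 4).

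Cilp (cartilage intermediate layer protein, a matrix protein of load-bearing tissue) had values of 1.34, 2.71 and 4.13 in WT and 3.32, 5.16 and 6.47 in Mu-RE mice, with 22 of 24 above the WT range. The difference was 2.32 (SE 0.23, adjusted p = 5.68e-10). Ostn (osteocrin or musclin, a peptide hormone released by muscle) had values of 1.18, 3.17 and 3.89 in WT and 3.37, 4.76 and 5.92 in Mu-RE mice, with 22 of 24 above the WT range, and was higher by 1.75 (SE 0.17, adjusted p = 2.57e-10). Lrp2bp had values of 0.36, 1.49 and 2.00 in WT and 2.49, 3.01 and 3.74 in Mu-RE mice, the one gene of the 12 raised most whose groups did not overlap (1.63, SE 0.11). The 12 were chosen for their size in these same mice. Overlap was read only in 146 named genes, 4 of which did not overlap, and its share over all genes was not computed. Ankrd1, a stretch-responsive muscle protein, was higher by 2.03 (SE 0.26), Mybph, a myosin-binding protein, by 1.86 (SE 0.26), and the imprinted non-coding RNA H19 by 1.58 (SE 0.13). Col12a1, a collagen, was higher by 1.57 (SE 0.37), Ak4, a mitochondrial adenylate kinase, by 1.51 (SE 0.15), and Myom3, an M-band protein, by 1.42 (SE 0.22). Cdkn1a, which encodes the cell cycle inhibitor p21, had values of 1.40, 2.81 and 4.63 in WT and 3.20, 3.92 and 6.77 in Mu-RE mice, a difference of 1.39 (SE 0.23, adjusted p = 2.04e-05). Mmp13, a collagenase, was higher by 1.70 (SE 0.61, adjusted p = 0.0306), but WT mice spread from -6.52 to 4.51 and the call was lost without WT replicate 13 (or 18).

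The genes lowered most included chemokines and genes of connective tissue. Cxcl14, a chemokine, had a lowest, median and highest value of 3.44, 4.08 and 4.83 in WT and 1.24, 2.34 and 3.01 in Mu-RE mice, with no overlap and a difference of -1.84 (SE 0.11, adjusted p = 4.43e-17). Ccl11 (eotaxin) had values of 2.04, 2.85 and 3.56 in WT and 0.33, 1.21 and 1.83 in Mu-RE mice, again with no overlap (-1.65, SE 0.12). Pi16, a marker of fibroblasts around vessels and fascia, had values of -0.05, 1.51 and 2.38 in WT and -1.33, -0.35 and 0.71 in Mu-RE mice, with 18 of 24 below the WT range (-1.76, SE 0.15). Dpt (dermatopontin, a matrix protein of fibroblasts) was at -1.42 (SE 0.11) and Clec3b (tetranectin) at -1.42 (SE 0.12). Gstt1, a glutathione transferase, was at -1.49 (SE 0.10), with 23 of 24 Mu-RE mice below the WT range.

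The other genes of the 12 lowered most were of different kinds. Sbk2, a kinase, did not overlap between groups (4.20 to 6.15 in WT, 2.35 to 4.11 in Mu-RE; -1.70, SE 0.13), and Igfn1, a muscle protein, was at -1.74 (SE 0.25). Ighm, the heavy chain of IgM antibodies, was at -1.91 (SE 0.23). The mitochondrial gene mt-Nd3 was at -1.87 (SE 0.34), and the immediate early genes Fos and Egr1 were at -1.72 (SE 0.44) and -1.39 (SE 0.36). Fos spread from -1.11 to 6.17 in WT and from -0.99 to 2.58 in Mu-RE mice, so its groups overlapped over most of their range.

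**Figure D3:**
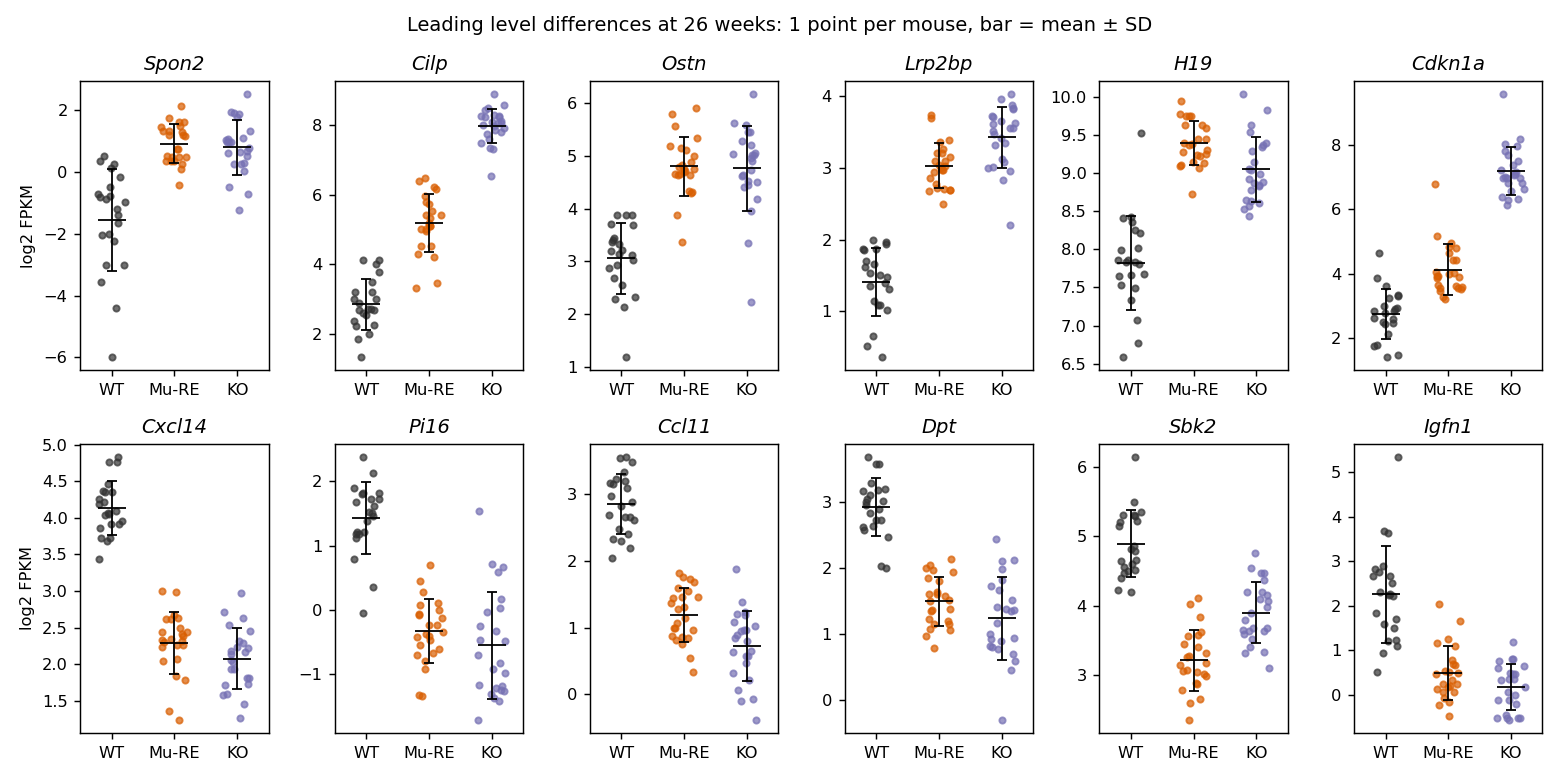
Log2 FPKM (y axis of each panel) of 6 genes raised and 6 lowered in Mu-RE muscle, in single WT, Mu-RE and KO mice of 26 weeks (x axis); bars are the mean and SD. In Spon2, Ostn, Cxcl14 and Pi16 the Mu-RE mice lie at about the height of the KO mice, and in Cilp and Cdkn1a they lie between WT and KO.

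Set beside the knockout, 3 kinds of gene can be told apart by their values; the 2 comparisons share the WT mice, so they are not independent. Genes of the first kind had similar differences from WT in Mu-RE and KO muscle. For Spon2 the KO minus WT difference was 2.33, for Ostn 1.73, for Cxcl14 -2.06, for Pi16 -1.97 and for Igfn1 -2.11, and the test of Mu-RE against KO was not passed in any of these 5 (differences of 0.10, 0.02, 0.22, 0.19 and 0.31, with SE of 0.12 to 0.22). Genes of the second kind lay between. Cilp was 5.12 above WT in KO mice, Cdkn1a 4.45 and Myom3 3.30, and the Mu-RE level was below that of KO by 2.80, 3.11 and 1.92 (largest adjusted p 1.27e-13). Genes of the third kind were away from WT in Mu-RE mice and not, or in the opposite direction, in KO mice. For Ighm the mean was 4.16 in WT (SD 0.62, n = 22), 2.29 in Mu-RE (SD 1.02, n = 24) and 4.28 in KO muscle (SD 0.71, n = 24). Ak4 averaged -0.04 (SD 0.70), 1.46 (SD 0.34) and -0.79 (SD 0.55) in the same order. Sbk2 was of none of these kinds, with medians of 4.80 in WT, 3.16 in Mu-RE and 3.84 in KO mice. It was below WT in both, and lower in Mu-RE than in KO mice by 0.71 (limma, SE 0.13, adjusted p = 1.43e-05).

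For genes that depend on Bmal1, a list was taken from mice of 10 weeks. It held 88 genes at least 2-fold higher and 133 at least 2-fold lower in KO than in WT muscle at that age. Of the 88, 41 were higher and 12 lower in Mu-RE than WT muscle at 26 weeks (16.4% and 14.5% of all genes were), with a median difference of 0.31. In KO muscle at 26 weeks 79 were higher (24.4% of all genes were) and the median was 1.37. Of the 133, 57 were lower and 11 higher in Mu-RE muscle, with a median of -0.19, while 113 were lower in KO muscle (22% of all genes were), with a median of -1.26. With the length covariate the Mu-RE counts were 37 higher and 7 lower for the first list and 52 lower and 9 higher for the second. Over all genes tested the median was 0.01. Ces1d, the gene used to check the labels, was at 3.85 (SD 0.71, n = 22) in WT and 3.29 (SD 0.65, n = 24) in Mu-RE mice, a difference of -0.58 (SE 0.19, adjusted p = 0.0181) that was not called with the length covariate (-0.44, adjusted p = 0.123).

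Markers of fibroblasts were lower as a group. Of 8 listed, 7 passed the filter on low values. Of these, 5 were lower (14.5% of all genes were) and 0 higher (16.4% of all genes were). Their median was -1.16, against 0.01 over all genes tested. Gsn (gelsolin) was lower by 1.21 (SE 0.10) and Dcn (decorin) by 1.16 (SE 0.11), along with Dpep1, Dpt and Pi16, while Col1a1 (0.20) and Ly6a (-0.12) were not called. The summed level of the 8 markers was 119 to 315 FPKM in WT mice (median 211). It was 66.7 to 172 in Mu-RE (median 117) and 53.3 to 173 in KO mice (median 99.4). Of the 8 markers, 0 were at about 0.01 FPKM or less in all mice of a group. The same 5 were lower with the length covariate. In bulk tissue, fewer cells of a type and less RNA per cell cannot be told apart.

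Markers of macrophages and antigen-presenting cells were lower too. Of 15 listed, 7 were tested, and 6 were lower (14.5% of all genes were) and 0 higher (16.4% of all genes were), with a median of -1.04. The counts were the same with the length covariate. C1qc, a complement subunit of macrophages, was lower by 1.10 (SE 0.15), Cd74, the invariant chain of antigen presentation, by 1.07 (SE 0.13) and C1qb by 1.03 (SE 0.14); Cd68 (-0.42) was not called. The summed level of the 13 markers in the table was 28.2 to 81.4 FPKM in WT, 16.7 to 63.9 in Mu-RE and 14.3 to 57.4 in KO mice. Endothelial and mural markers went the other way, with 7 of 12 tested higher and 0 lower (5 higher with the length covariate; median 0.42). Kdr, a receptor for vascular growth factor, was higher by 0.74 (SE 0.14), Cldn5, a tight junction protein of vessels, by 0.69 (SE 0.12), and Pecam1 by 0.52 (SE 0.09). Their summed level overlapped widely, at 123 to 245 FPKM in WT and 143 to 269 in Mu-RE mice. Red blood cell markers were lower in 3 of 5 genes (median -0.67) and in 1 of 5 with the length covariate, and summed to 89.7 to 475 FPKM in WT and 44.5 to 405 in Mu-RE mice. Satellite cell markers (2 tested) and nerve markers (2 tested) held 0 calls in either direction (limma; 0 and 1 at an unadjusted p under 0.05).

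Matrix genes were divided. Of 25, 7 were higher and 8 lower (7 and 7 with the length covariate), with a median of 0.02. The basement membrane collagens Col4a1 (0.67, SE 0.11) and Col4a2 (0.74, SE 0.12), the crosslinking enzyme Lox (1.01, SE 0.18) and periostin (Postn, 0.92, SE 0.32) were higher beside Cilp. The chains of collagen VI, Col6a1 (-0.56), Col6a2 (-0.63) and Col6a3 (-0.45), the metalloproteinase inhibitor Timp2 (-0.55, SE 0.08), fibronectin (Fn1, -0.57) and lumican (Lum, -0.79) were lower. These genes moved beside the fibroblast markers above, whose part in the result was not tested.

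In the muscle fibre itself, slow-fibre genes were higher. Of 8 tested, 6 were higher (16.4% of all genes were) and 1 lower (14.5% of all genes were), with a median of 0.50. With the length covariate 5 were higher and 0 lower. The slow light chain Myl2 was higher by 1.04 (SE 0.21), the slow myosin-binding protein Mybpc1 by 0.54 (SE 0.07), and the slow calcium pump Atp2a2 by 0.48 (SE 0.12), while the light chain Myl3 was lower by 0.43 (SE 0.14). Summed, the 10 slow genes of the list came to 448 to 947 FPKM in WT, 695 to 1330 in Mu-RE and 452 to 756 in KO mice. The medians of this sum were 672, 920 and 562 in the same order. Most of it was Mybpc1, with a geometric mean of 560 FPKM in WT, 810 in Mu-RE and 458 in KO mice. The slow sum was small beside the fast-fibre list at 45900 to 67200 in WT and 42400 to 65800 in Mu-RE mice. Of 14 fast-fibre genes 3 were higher and 2 lower: Myh2, the myosin of fast oxidative fibres, by 1.03 (SE 0.20), Mybpc2 by 0.27 (SE 0.06) and Myh4, the myosin of the fastest fibres, by 0.29 (SE 0.10), against lower Pvalb (parvalbumin, -0.54, SE 0.11) and Mylk4 (-0.34, SE 0.11). The call of Myh4 was lost without WT replicate 1, 5 or 19. Among regulators of muscle identity, Myod1 was lower by 0.73 (SE 0.14) and Myog higher by 0.54 (SE 0.15).

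The 13 protein-coding genes of the mitochondrial genome were lower, all 13 of 13 (14.5% of all genes were), with a median of -0.72. With the length covariate 12 were lower, and 12 without WT replicates 1 and 19. The smallest difference was in mt-Co1 (-0.46, SE 0.12) and the largest in mt-Nd3 (-1.87). WT mice differed widely among themselves: their sum was 105000 to 355000 FPKM (median 254000), against 98600 to 290000 in Mu-RE mice (median 137000), so the ranges overlapped almost in full. Of 24 Mu-RE mice, 23 lay below the WT median in mt-Nd1 and in mt-Nd4, and 21 in mt-Nd3. In KO mice the sum was 105000 to 250000 FPKM (median 146000), and 12 of 13 genes were lower than in WT (22% of all genes were). In other mice 0 of 13 were called at 10 weeks (limma; 6 at an unadjusted p under 0.05) and 0 on TRF (0 at an unadjusted p under 0.05). Nuclear genes of oxidative phosphorylation depended on the fit: 2 of 30 were higher and 8 lower, but 5 higher and 1 lower with the length covariate, with 2 higher and 1 lower called in both fits.

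Several genes of fatty acid synthesis were higher. Of 14 genes of lipid synthesis and storage 5 were higher (16.4% of all genes were) and 2 lower (14.5% of all genes were), or 6 and 1 with the length covariate, with a median of 0.12. Fasn, the fatty acid synthase, had values of -1.43, -0.38 and 0.78 in WT and -0.45, 1.17 and 2.29 in Mu-RE mice, with 16 of 24 above the WT range and a difference of 1.35 (SE 0.17, adjusted p = 1.37e-07). Elovl5, an elongase, was higher by 0.61 (SE 0.09), and Acly, which supplies acetyl units, by 0.47 (SE 0.07); Scd1, the desaturase, was higher by 1.29 (SE 0.26). In KO muscle the same genes were above WT by 1.61 (Fasn), 0.86 (Elovl5), 0.58 (Acly) and 1.58 (Scd1). Fat cells could share these genes, and 3 of 8 adipocyte markers were tested. Cfd was higher by 1.16 (SE 0.28). Car3, which is also a gene of the muscle fibre, was lower by 0.41 (SE 0.12). The summed level of the 8 markers was 949 to 1920 FPKM in WT and 664 to 1780 in Mu-RE mice. Most of this sum was Car3, with a geometric mean of 1290 FPKM in WT and 970 in Mu-RE mice. The sum therefore says little of fat cells, whose part in the higher Fasn and Scd1 was not tested.

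Genes of branched-chain amino acid breakdown were higher in 5 of 18 (16.4% of all genes were) and lower in 0 (14.5% of all genes were; 8 and 0 with the length covariate), led by Ivd (0.30, SE 0.05) and Bckdha (0.22, SE 0.05). In insulin and IGF signalling 8 of 18 were higher and 1 lower, and 4 and 2 with the length covariate; Grb10, an adaptor that restrains the insulin receptor, was higher by 0.39 (SE 0.07) and the growth factor Igf2 by 0.60 (SE 0.11). Fatty acid uptake and oxidation changed with the fit, from 7 higher and 1 lower of 28 to 2 and 2. For immediate early genes, switched on by activity or stress at the time of sampling, 5 of 11 were lower and 0 higher (6 with the length covariate): Fos, Egr1, Ier2 (-0.75, SE 0.16), Jun (-0.42) and Junb (-0.65). Glucose uptake and glycolysis held 4 higher and 2 lower of 29 (1 and 2 with the length covariate), shares no larger than the 16.4% and 14.5% over all genes, with Tbc1d1, which governs glucose transporter traffic, lower by 0.29 (SE 0.09). The tricarboxylic acid cycle held 6 higher and 2 lower of 16 (2 and 0 with the length covariate).

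In the remaining lists calls were few or went in both directions. Over all genes 16.4% were higher and 14.5% lower, or 10.8% and 9.16% with the length covariate. Of 10 targets of p53, 3 were higher and 1 lower, in both fits: beside Cdkn1a these were the receptor gene Eda2r (0.58, SE 0.18) and Trp53inp1 (0.36, SE 0.10), against Phlda3 (-0.28, SE 0.07). Of 16 glucocorticoid-responsive genes 3 were higher, near the share over all genes, and 0 lower (1 and 0 with the length covariate). The 3 were Glul, Zbtb16 (0.56, SE 0.15) and Foxo3 (0.33, SE 0.08). Zbtb16 and Foxo3 were not called with the length covariate (limma, adjusted p = 0.0708 and 0.06). Of 14 calcium handling genes 4 were higher and 2 lower, with Casq2, the slow calsequestrin, higher by 0.49 (SE 0.12). Of 18 antioxidant genes 0 were higher and 4 lower, but 2 were higher and 1 lower with the length covariate. Among 11 interferon-responsive genes Ifit3 was at -0.93 (SE 0.17) and Rsad2 at 0.50 (SE 0.12), with 1 higher and 2 lower in all (4 and 1 with the length covariate). The integrated stress response (0 higher and 2 lower of 8), cholesterol (0 and 2 of 10), atrophy and autophagy (3 and 1 of 20), fasting response (1 and 0 of 12), heat shock (1 and 0 of 12), inflammation (1 and 0 of 4), denervation (2 and 2 of 10) and tendon lists (0 and 1 of 4) make up the rest.

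**Figure D4:**
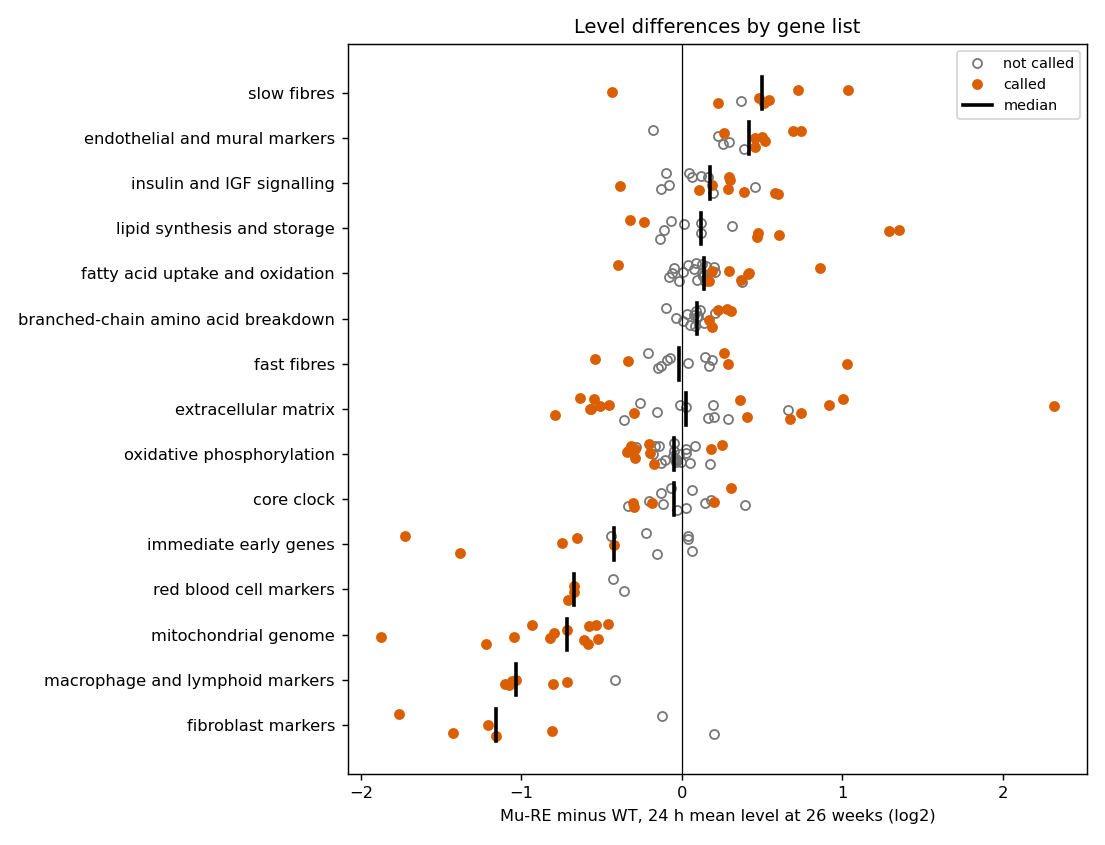
Mu-RE minus WT difference in 24 h mean level at 26 weeks (x axis, log2) for each tested gene of 15 gene lists (y axis). Filled points were called by limma at an adjusted p of 0.05, open points were not, and black bars are medians, which run from -1.16 for fibroblast markers to 0.50 for slow fibres. In oxidative phosphorylation 2 of the 2 higher and 1 of the 8 lower calls were also made with the length covariate.

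The 302 genes that differed at least 1.5-fold at 26 weeks were then read in mice of 10 weeks, none of which entered the first comparison. The sign was the same for 119 of the 146 higher and 135 of the 156 lower genes, 84.1% together, against 52.1% over all genes tested. Of the 146 higher genes 83 were called higher at 10 weeks too (12.6% of all genes were), and of the 156 lower genes 76 were called lower (13.9% of all genes were). The median difference at 10 weeks was 0.36 for the higher and -0.36 for the lower genes, against 0.76 and -0.78 at 26 weeks, where they had been chosen for their size. On TRF, in 26-week mice, the sign was the same for 238 of the 302 (78.8%, against 43.4% over all genes). Over all 3042 called genes the sign was the same at 10 weeks for 57.1% (52.1% over all genes). On TRF it was the same for 46.5% (43.4% over all genes). Among genes called with the length covariate it was the same for 76.8% at 10 weeks and 68.4% on TRF. There only the 26-week ALF difference was fitted with the covariate, and the share over all genes was not computed.

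The size of the level difference changed with age for 2609 genes (26.5%), and for 1376 with the length covariate. Spon2 (2.20 at 10 weeks), Mybph (1.86), Igfn1 (-1.99) and Pi16 (-1.72) already differed by about as much at 10 weeks, and for these 4 the change with age was not called. Fibroblast markers were lower in 5 of 7 and macrophage markers in 7 of 7 at 10 weeks, with the same counts on TRF. The counts of some other lists differed from those at 26 weeks, and several were near the shares over all genes. Those shares were 12.6% higher and 13.9% lower at 10 weeks. On TRF 1820 of all 9862 genes were higher and 1342 lower. Endothelial and mural markers were higher in 2 and lower in 1 of 12 at 10 weeks, and higher in 1 and lower in 6 on TRF. Slow-fibre genes were higher in 1 and lower in 2 of 8 at 10 weeks, and higher in 4 and lower in 0 on TRF. Insulin and IGF signalling held 2 higher and 7 lower of 18 at 10 weeks, and 3 and 3 on TRF. By contrast Ankrd1 (-0.18 at 10 weeks), Cdkn1a (0.27) and Cilp (0.56) differed more at 26 weeks, and Myom3 (-0.68) and Myh2 (-0.90) had the opposite sign at 10 weeks.

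**Figure D5:**
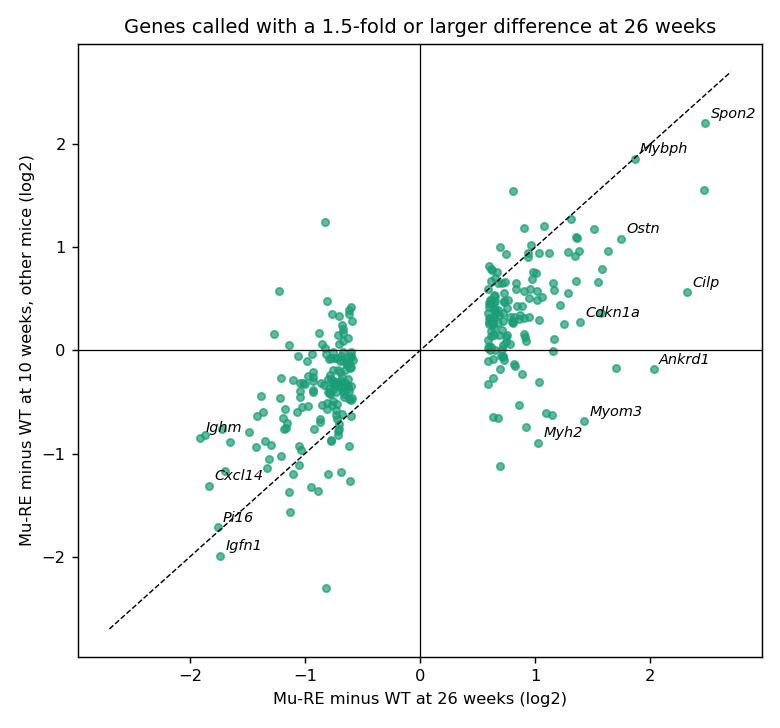
Mu-RE minus WT difference in 24 h mean level (log2) at 10 weeks (y axis) against that at 26 weeks (x axis) for the 302 genes called at 26 weeks with a difference of at least 1.5-fold; each point is a gene, and the 2 axes come from different mice. The dashed line marks equal differences, and 254 of the 302 genes lie in the quadrants of equal sign.

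Genes of muscle ageing went in both directions. A list of 69 genes was at least 2-fold higher in old mice of 85 to 116 weeks than in WT mice of 10 weeks. Of these, 15 were higher and 12 lower in Mu-RE than WT muscle at 26 weeks (median 0.11), near the 16.4% and 14.5% over all genes. With the length covariate 16 were higher (10.8% of all genes were) and 6 lower (9.16% of all genes were), with a median of 0.26. Of 102 genes at least 2-fold lower in old mice, 25 were lower (14.5% of all genes were) and 16 higher (16.4% of all genes were), with a median of -0.02. With the length covariate 21 were lower (9.16% of all genes were) and 14 higher (10.8% of all genes were).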

How the data were processed

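Values are on the log2 scale: log2 FPKM as the authors deposited them, covering 14413 genes in 352 libraries. The submitters' processing notes name GRCm38 and these tools: limma 3.44.1, edgeR 3.30.0, featureCounts 1.6.2, HISAT2 2.1.0, Trim Galore 0.5.0 and FastQC 0.11.8. The depth estimate took the lowest values of a gene to stand for 0.01 FPKM. These values were not the same for every gene and sex. In Ces1d the lowest KO mouse was at -6.82, which is under the log2 of 0.01. For 259 libraries, female and male means coincide in each gene to within 1e-05; the sources used here do not name the step behind this, so the sexes were not compared.

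Genes averaging a log2 FPKM of 0 or more over all libraries were kept (9862). In limma 3.58.1 (R 4.3.3; trend, robust), each group had a level plus 24 h cosine and sine terms, with sex as a covariate. Level was tested two-sided and rhythm by an F test, with Benjamini-Hochberg adjustment across all kept genes; p-values measure the spread between these mice. A fold is 2 to the power of a log2 difference. The models were tested on simulated data. Exon lengths and gene coordinates came from the GENCODE annotation of GRCm38, and tables and figures from Python 3.11.15, pandas 2.3.3, numpy 2.4.6 and matplotlib 3.10.9.

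The comparison, gene lists and tests were chosen with earlier results of these data known. Named genes were the 12 with the largest difference in each direction, the 12 with the smallest p of a rhythm difference, the 6 most rhythmic per group, all clock genes (1 is not reported here), up to 3 called per direction and list, 6 genes of the 10-week KO lists, and Arntl, Dbp and Ces1d; genes known only by a Gm or Rik number were counted but passed over in naming. Other genes named, from the lists or from the 31 with a different rhythm, were chosen after their values were seen. Alternatives were other filters, constants, scalings, variance and day models, a length covariate, a replicate block and leaving out mice.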

Additional observations from a re-analysis of the deposited data

Results flagged for a closer look

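The level difference between Mu-RE and WT muscle was compared between 26 and 10 weeks in 1 fit of 4 groups (limma, interaction of genotype and age). It was called for 14 of the 24 genes with the largest differences, and in all 14 the difference was the larger one at 26 weeks, where these genes had been chosen for their size. Among genes higher in Mu-RE muscle, the difference at 26 weeks exceeded that at 10 weeks by 2.20 for Ankrd1, 2.08 for Myom3, 1.73 for Cilp and 1.10 for Cdkn1a. It exceeded it by 0.77 for H19, 0.66 for Ostn and 0.66 for Lrp2bp. Among genes lower in Mu-RE muscle, the difference between the ages was -1.04 for Ighm, -0.79 for Clec3b, -0.76 for Ccl11, -0.68 for Gstt1, -0.53 for Cxcl14, -0.52 for Sbk2 and -0.49 for Dpt. The age groups are different mice, and what else differed between them was not tested. In 36 sets of 4 or 5 mice of 1 group and time, for Per2, Dbp, Nr1d1 and Arntl, 0 held a mouse that stood apart from the others by Dixon's test, which flags about 1 set in 20 by chance.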

How the results depend on the processing

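The length slope as a covariate gave 1065 higher and 903 lower genes and 1376 that changed with age, the only alternative to move these 3 counts by over 1.5 times. With the spread shared over 15 groups 164 genes were rhythmic in WT and 5 in Mu-RE mice (Gnas, Cdk2ap1, Rsbn1l, Lemd2 and Cebpb), and with time as a factor 66 and 29. The median amplitude ratio of 10-week rhythmic genes was 0.36 at the stricter threshold. Leaving out 1 mouse at a time gave 1438 to 1717 higher genes, 1225 to 1572 lower, 79 to 116 rhythmic in WT and 0 to 1 in Mu-RE mice (Dexi without replicate 4, Tcf15 without replicate 8), 24 to 37 with a different rhythm and 2358 to 2830 that changed with age. Without WT replicates 1 and 19, chosen after seeing the data, 1381 genes were higher and 1134 lower.

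Replicate numbers did not pair the mice: over 21 shared numbers the correlation ran from -0.15 to 0.43, was over 0.1 for 14, and 2 Mu-RE mice correlated best with their own number. With the replicate block, on 42 mice, 1535 genes were higher, 1568 lower and 20 differed in rhythm; the clock genes Clock (adjusted p = 0.147), Per1 (0.106) and Cry2 (0.208) were not among the 20.

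Small uncalled values changed sign: the Per2 level difference was -0.013 with 1 FPKM added and -0.058 with the length covariate, that of Nfil3 -0.032 with the block, that of Per3 reached 0.00791 on leaving out 1 mouse, and that of Tef ran from -0.000478 to 0.0518. Amplitude differences of Ptms (-0.004) and Rora (-0.069) reversed with time as a factor. The cause was not tested.

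How the equal means of the sexes arose was not tested.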

Other observations

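Some genes that were not called with the 24 h curve were called for variation between sampling times in Mu-RE muscle; they were looked at after their values were seen. With time as a 6-level factor, 29 genes were called in Mu-RE mice, against 0 with the 24 h curve (5 with the spread shared over 15 groups, Gnas, Cdk2ap1 and Cebpb among them). The smallest adjusted p belonged to Cdk2ap1, a cell cycle regulator (limma, adjusted p = 9.69e-06), followed by Ccdc85c (4.6e-05) and Taf10, a subunit of the general transcription machinery (5.55e-05). Cebpb, a transcription factor of the C/EBP family (0.000293), and Gnas, a G protein subunit (0.00596), were among the 29 as well. None of the 29 was on the core clock list.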
